A study of Rattus norvegicus with 47 samples.

Results

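Carcinomas that the study labelled as beta-catenin mutated were compared with carcinomas that carry no such label, in livers of male Wistar rats. Arrays were chosen by their group label alone, which gave 4 arrays with the beta-catenin label and 4 without it, 8 of the 47 arrays of the series. Each rat had been given the liver carcinogen N-nitrosomorpholine once, at 250 mg/kg and 4 weeks of age. After 3 weeks of recovery, phenobarbital (50 mg/kg per day), a tumour promoter that acts through the nuclear receptor CAR, was given in the drinking water for up to 17 months. Surrounding liver carried the same 2 treatments, so no group here is untreated.

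All 8 carcinomas were frozen whole tissue from 3 animals. The labelled group held 1 tumour of animal 10 (replicate 1), 1 of animal 21 (replicate 2) and 2 of animal 23 (replicates 3 and 4). The unlabelled group held 1 tumour of animal 10 (replicate 1), 2 of animal 21 (replicates 2 and 3) and 1 of animal 23 (replicate 4). Tumours of 1 animal share that animal, which entered the fit as a block. Both groups share the same 3 surrounding arrays, 1 per animal, through the control sets that the labels name. The fit also held the other frozen surrounding arrays (7 in all), 5 nodules and 6 adenomas for its estimate of the spread. P-values measure only the spread between these samples. In whole tissue, fewer cells of a type and less RNA per cell cannot be told apart.

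The values are log2 intensities of Affymetrix probe sets, 1 probe set per gene for 14217 genes. Array medians lay between 5.49 and 5.59 in the 26 arrays fitted. Labelled replicate 1 stood apart from the other carcinomas: its mean correlation with them over all genes was 0.964, against 0.974 to 0.982 for each of the others.

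The labels and the marker genes disagree for 3 of the 8 arrays. In the array labelled as beta-catenin mutated in animal 10 (replicate 1), Glul, Lgr5 and Tbx3 were low. The mutation appears in its group label but is missing from its source name. In the unlabelled arrays of replicate 1 (animal 10) and replicate 3 (animal 21), Glul and Lgr5 were high. All 8 arrays were kept under their group labels, and the groups below are those of the labels, not of a mutation measured here.

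Beta-catenin, encoded by Ctnnb1, joins cells to each other at the membrane and carries the Wnt signal to the nucleus. Without Wnt, the destruction complex of APC, AXIN1 and the kinases GSK3 and CK1 marks it for breakdown. Mutations in the marked stretch let it accumulate and act with the TCF and LEF factors on target genes. In normal liver this signal is strongest in hepatocytes around the central vein, where it maintains Glul and other pericentral genes and holds back the periportal programme.

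Promoters of 4 target genes are shown as examples, 2 from each of the feedback and pericentral lists, of genes that shared the same 5 highest arrays and hold the TCF and LEF core motif CTTTGAT. The motif was searched on both strands in RefSeq promoters of build GRCr8, 250 bases before to 50 after each gene start. It was found in 1216 of 33469 promoters (3.63%). Of the 35 measured genes of the Wnt feedback and pericentral lists, 28 had a promoter in the table and 7 of these (25.0%) held the motif, as did 1084 of 27457 genes with a promoter (3.95%). They were Axin2, Nkd1, Tcf7, Glul, Lect2, Cyp1a2 and Slc1a2. Leaving aside Glul itself, all but Nkd1 shared the 5 highest arrays of Glul. With or without the motif, 6 of the 16 feedback genes and 12 of the 18 other pericentral genes did so, as did 5.6% of all genes. Whether the motif goes with this order was not tested. In the lines below the motif or its reverse complement ATCAAAG is in capitals and the rest is in lower case, 5′ to 3′ on the strand of the gene. The Axin2 promoter lies at chr10:94398535-94398834 on the plus strand, that of Tcf7 at chr10:36954230-36954529 on the minus strand, that of Glul at chr13:68519250-68519549 on the plus strand and that of Lect2 at chr17:8049784-8050083 on the plus strand. The motif starts 132 bases before the gene start in Axin2, 4 in Tcf7, 230 in Glul and 68 in Lect2. The other Glul promoter in the table has no match, and which of them was used in these tumours was not tested.
Axin2: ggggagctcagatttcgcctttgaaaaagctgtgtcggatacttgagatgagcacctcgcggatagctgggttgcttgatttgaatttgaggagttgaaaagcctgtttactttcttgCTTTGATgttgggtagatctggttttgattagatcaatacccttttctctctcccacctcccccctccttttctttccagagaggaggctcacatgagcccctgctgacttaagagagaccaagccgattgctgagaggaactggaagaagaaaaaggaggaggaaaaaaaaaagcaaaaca
Tcf7: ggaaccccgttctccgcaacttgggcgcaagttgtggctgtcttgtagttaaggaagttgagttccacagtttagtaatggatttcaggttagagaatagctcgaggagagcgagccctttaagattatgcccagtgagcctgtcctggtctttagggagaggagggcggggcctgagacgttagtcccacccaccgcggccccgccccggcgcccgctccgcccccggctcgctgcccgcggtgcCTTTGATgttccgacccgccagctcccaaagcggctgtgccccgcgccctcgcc
Glul: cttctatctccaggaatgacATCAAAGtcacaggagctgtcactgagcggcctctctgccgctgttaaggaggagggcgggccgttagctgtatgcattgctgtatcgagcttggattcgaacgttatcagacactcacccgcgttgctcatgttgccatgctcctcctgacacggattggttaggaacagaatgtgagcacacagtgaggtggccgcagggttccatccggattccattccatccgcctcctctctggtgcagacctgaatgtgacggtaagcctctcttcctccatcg
Lect2: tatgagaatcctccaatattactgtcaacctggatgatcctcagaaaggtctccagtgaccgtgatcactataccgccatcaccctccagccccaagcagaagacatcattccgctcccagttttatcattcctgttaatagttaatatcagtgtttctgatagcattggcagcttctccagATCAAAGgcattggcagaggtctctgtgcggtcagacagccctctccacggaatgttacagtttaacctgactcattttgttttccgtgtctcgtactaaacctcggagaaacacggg
These matches describe letters in a window and show no binding.

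Glul encodes glutamine synthetase, the enzyme that fixes ammonia into glutamine in pericentral hepatocytes. Its log2 intensity in labelled replicates 1 to 4 was 9.26, 13.32, 12.96 and 13.31. In unlabelled replicates 1 to 4 it was 13.02, 9.56, 12.69 and 10.39. Surrounding liver of animals 10, 21 and 23 read 10.29, 10.47 and 10.80. Thus, on the probe set used, 3 labelled and 2 unlabelled carcinomas lay above every surrounding array, labelled replicate 1 lay below them all, and the groups overlapped fully. The same tumours were highest on all 3 Glul probe sets, but the low ones sat differently on the others. Unlabelled replicate 4 read 9.64 and 10.48 there, above the highest surrounding, nodule or adenoma array (9.05 and 10.09). Labelled replicate 1 read 8.69 and 9.61, above the medians of those arrays (7.47 and 9.16). The fitted difference, labelled minus unlabelled, was 0.82 ± 0.78 (SE), with a 95% interval from -0.81 to 2.45 and a limma adjusted p of 0.999. Within animals the difference was -3.76 in animal 10, 2.19 in animal 21 and 2.74 in animal 23.

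Lgr5, a receptor for R-spondins and a mark of Wnt-activated hepatocytes, had log2 values of 3.08, 6.78, 7.06 and 7.08 in labelled replicates 1 to 4. Unlabelled replicates 1 to 4 read 5.84, 3.08, 6.17 and 3.50, and surrounding liver read 3.35, 3.38 and 3.54. The same 5 tumours as for Glul were high, and the other 3 lay at or below the level of surrounding liver. The difference was 1.38 ± 0.70 (SE), with an interval from -0.08 to 2.84 and a limma adjusted p of 0.999. Tbx3, a transcription factor induced by beta-catenin, read 5.18, 7.62, 7.86 and 9.50 in the labelled and 7.04, 4.63, 6.60 and 5.09 in the unlabelled replicates, against 6.62, 6.27 and 6.69 in surrounding liver. Here the 3 low tumours lay below surrounding liver, unlabelled replicate 3 lay within its range, and labelled replicate 4 stood highest. Its difference was 1.59 ± 0.62 (SE), a 3.00-fold ratio, with an interval from 0.30 to 2.87 that excludes 0 and a limma adjusted p of 0.824.

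An exact two-sided permutation test over the 70 ways to split the 8 arrays gave p = 0.629 for Glul, 0.229 for Lgr5 and 0.143 for Tbx3, where the smallest possible p is 0.0286. With arrays exchanged only within an animal (18 ways, smallest p 0.0556), the exact permutation p was 0.722, 0.278 and 0.222. As labelled, none of the 3 markers was shown to differ beyond the spread among the arrays of a group. That spread was wide: the SD of Glul was 1.98 in labelled and 1.70 in unlabelled carcinomas, against 0.26 over the 7 surrounding arrays. The highest Glul value was 10.54 in frozen nodules and 10.35 in adenomas.

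**Figure D1:**
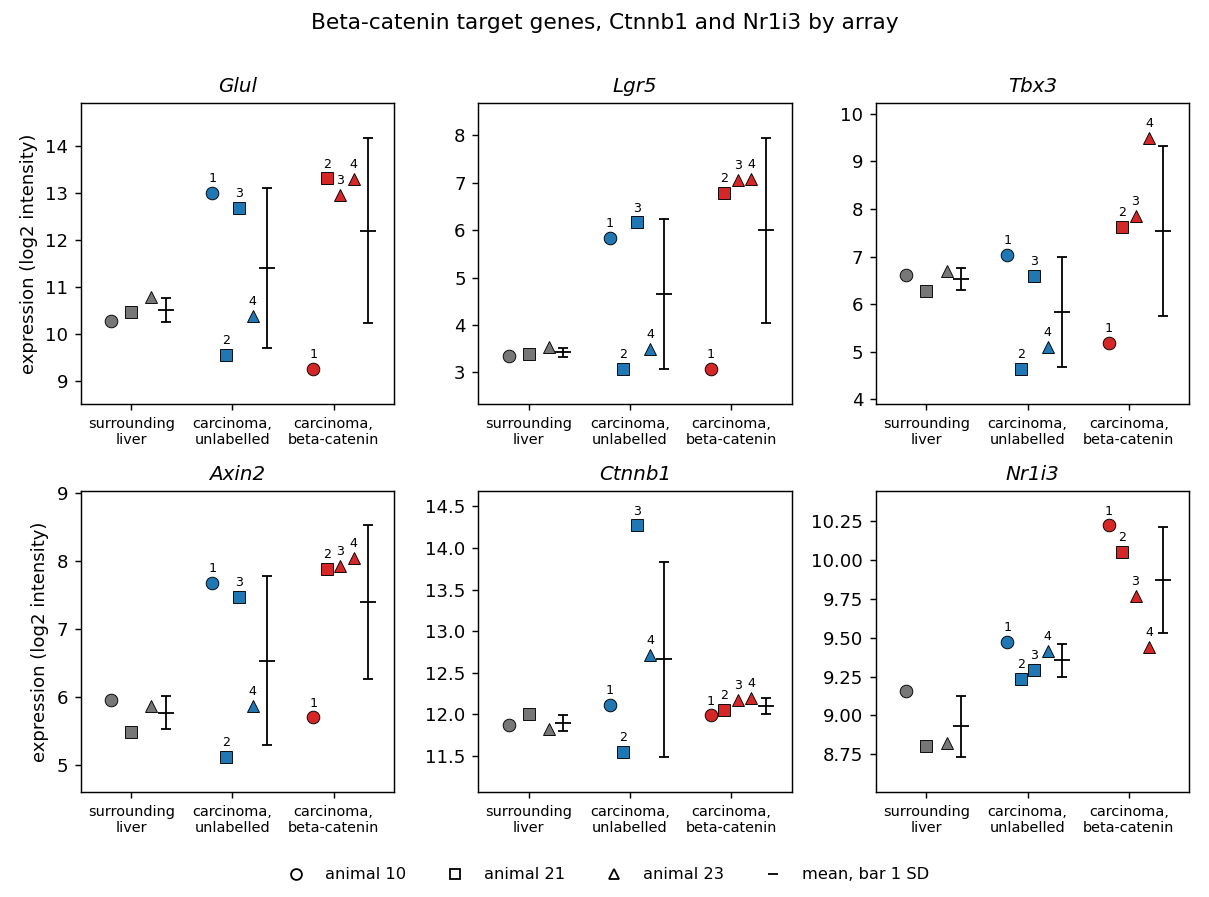
Log2 intensity (vertical axes) of 6 genes in 3 surrounding arrays (grey), 4 unlabelled carcinomas (blue) and 4 carcinomas with the beta-catenin label (red); numbers are replicates, symbols are animals, and the bar is the mean with 1 SD. Glul, Lgr5 and Axin2 are high in labelled replicates 2 to 4 and in unlabelled replicates 1 and 3, Ctnnb1 is highest in unlabelled replicate 3 at 14.27, and Nr1i3 in labelled replicates 1 to 3 lies above all 4 unlabelled arrays.

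Wnt feedback genes are induced by the pathway and mostly restrain it, by breaking down the receptors or rebuilding the destruction complex. None of the 16 measured genes of this list passed the test between labelled and unlabelled carcinomas. Over all genes, 0 of 14217 were called in either direction (0% higher and 0% lower). At an unadjusted p under 0.05, Tbx3 and Apcdd1 were higher in labelled carcinomas and none was lower, where 2.87% of all genes were higher and 2.22% lower. The list had 13 positive and 3 negative differences with a median of 0.31, beside a median of 0.01 over all genes. All genes together had 7500 positive and 6717 negative differences, to be set beside such counts in every list. By animal the list median was -0.29 in animal 10, 0.34 in animal 21 and 0.84 in animal 23. Without labelled replicate 1 it was 0.54 over all.

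Axin2, the scaffold that the pathway itself induces, read 5.70, 7.89, 7.94 and 8.05 in labelled and 7.68, 5.12, 7.48 and 5.88 in unlabelled replicates 1 to 4. Tcf7, a partner factor of beta-catenin, read 5.06, 7.48, 7.39 and 7.20 against 6.91, 5.06, 7.26 and 5.01. Both repeat the order of Glul, with 3 labelled and 2 unlabelled tumours high and a gap of over 1 log2 unit to the rest. Axin2, Lgr5, Tbx3, Znrf3, Tcf7 and Tnfrsf19, 6 of the 16, shared the 5 highest arrays of Glul, as 5.61% of all genes did. Znrf3 is a ubiquitin ligase that removes Wnt receptors, and its difference was 0.34 ± 0.36. Fitted differences were 0.86 ± 0.51 for Axin2 and 0.82 ± 0.51 for Tcf7, both with a limma adjusted p of 0.999.

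Apcdd1, a membrane inhibitor of Wnt, followed another order. Labelled replicates 1 to 4 read 5.87, 5.85, 7.46 and 8.14, and unlabelled ones 6.09, 4.76, 5.65 and 5.43. The 2 labelled tumours of animal 23 stood above all others, and replicate 1 did not drop out. Its difference was 1.12 ± 0.37 with a limma adjusted p of 0.652. Nkd1, a feedback inhibitor, was highest in labelled replicate 4 at 7.95, where the other labelled tumours read 6.05 to 6.31 and the unlabelled ones 5.70 to 6.94.

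Other members overlapped between the groups. The cell cycle gene Ccnd1 read 9.89 to 10.86 in labelled and 10.00 to 10.81 in unlabelled carcinomas, with a difference of -0.05 ± 0.31. Myc read 8.51 to 10.36 and 9.29 to 9.92, and its fitted difference of 0.17 ± 0.23 turned to -0.10 without the animal term. Prom1, a progenitor surface marker, was high in labelled replicates 1 and 4 (7.51 and 7.49) and lay between 5.12 and 5.57 in the other 6 carcinomas. Cd44, a hyaluronan receptor, read 8.60 in labelled replicate 1 and 6.20 to 8.16 elsewhere. Nkd2, Lef1, Wif1 and Ephb3 had differences of -0.16 ± 0.15, 0.28 ± 0.23, 0.26 ± 0.29 and -0.00 ± 0.21.

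Pericentral genes showed the same split of tumours on a larger scale. Of 19 measured genes none was called, Nr1i3 alone had an unadjusted p under 0.05, and 16 differences were positive with a median of 0.47. Of the 18 genes other than Glul, 12 shared its 5 highest arrays, as 5.61% of all genes did. By animal, the list median was -1.28 in animal 10, 0.67 in animal 21 and 1.06 in animal 23, and with 1 carcinoma left out it ranged over all animals from 0.18 (without unlabelled replicate 4) to 0.90 (without labelled replicate 1). Within-group spread was wide, with a median SD of 1.01 in labelled and 0.59 in unlabelled carcinomas, against 0.20 and 0.16 over all genes.

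Slc1a2, the glutamate transporter of pericentral hepatocytes, read 4.16, 6.25, 9.36 and 9.42 in labelled and 7.28, 4.73, 5.69 and 4.42 in unlabelled replicates 1 to 4. Only the 2 labelled tumours of animal 23 exceeded 9, and its difference was 1.58 ± 0.89 with a limma adjusted p of 0.999. Lect2, a secreted hepatocyte protein, read 9.30, 11.89, 12.12 and 11.91 against 11.69, 9.27, 11.08 and 10.20, so that labelled replicate 1 sat beside unlabelled replicate 2. The P450 enzyme Cyp1a2 read 7.94, 9.48, 11.04 and 10.84 in labelled carcinomas. In unlabelled ones it read 10.62, 7.97, 8.83 and 6.87, with a difference of 1.20 ± 0.77. Oat, ornithine aminotransferase, was high in 1 tumour, labelled replicate 4 at 11.67, and lay between 7.60 and 8.99 in the others.

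Gulo, Rgn, Cyp2e1, Slc13a3 and Ahr gave differences of 0.47 ± 0.42, 0.48 ± 0.49, 0.52 ± 0.47, 1.09 ± 0.55 and 0.39 ± 0.27. Gulo makes vitamin C, Rgn is a calcium-binding lactonase and Ahr is the dioxin receptor. All 5 shared the 5 highest arrays of Glul, and none passed the test. Cyp7a1, the rate-limiting enzyme of bile acid synthesis, read 8.14 in labelled replicate 1 and 10.92 to 11.48 in the other 3, against 9.58 to 11.88 in unlabelled carcinomas. Cyp27a1 and Slco1b2 had differences of -0.08 ± 0.28 and -0.22 ± 0.63. Avpr1a, Aldh3a2, Sult5a1, Tcf7l2 and Ang did not share the order of Glul and had differences of 0.19 ± 0.76, 0.04 ± 0.12, 0.08 ± 0.33, 0.07 ± 0.15 and 0.09 ± 0.16.

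Nr1i3, which encodes CAR, the receptor that phenobarbital activates, did not share the order of Glul and was highest in labelled replicates 1 to 3. It read 10.22, 10.05, 9.77 and 9.44 in labelled and 9.47, 9.24, 9.29 and 9.41 in unlabelled replicates 1 to 4. Surrounding liver of the same sets read 9.16, 8.80 and 8.83. All carcinomas lay above these, 3 labelled tumours lay above every unlabelled one, and labelled replicate 4 overlapped with unlabelled replicate 1. Its difference of 0.56 ± 0.16 did not pass, with a limma adjusted p of 0.527. This difference had 1 sign in each animal (0.75, 0.79 and 0.19), as 12.7% of all genes had in this direction.

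**Figure D2:**
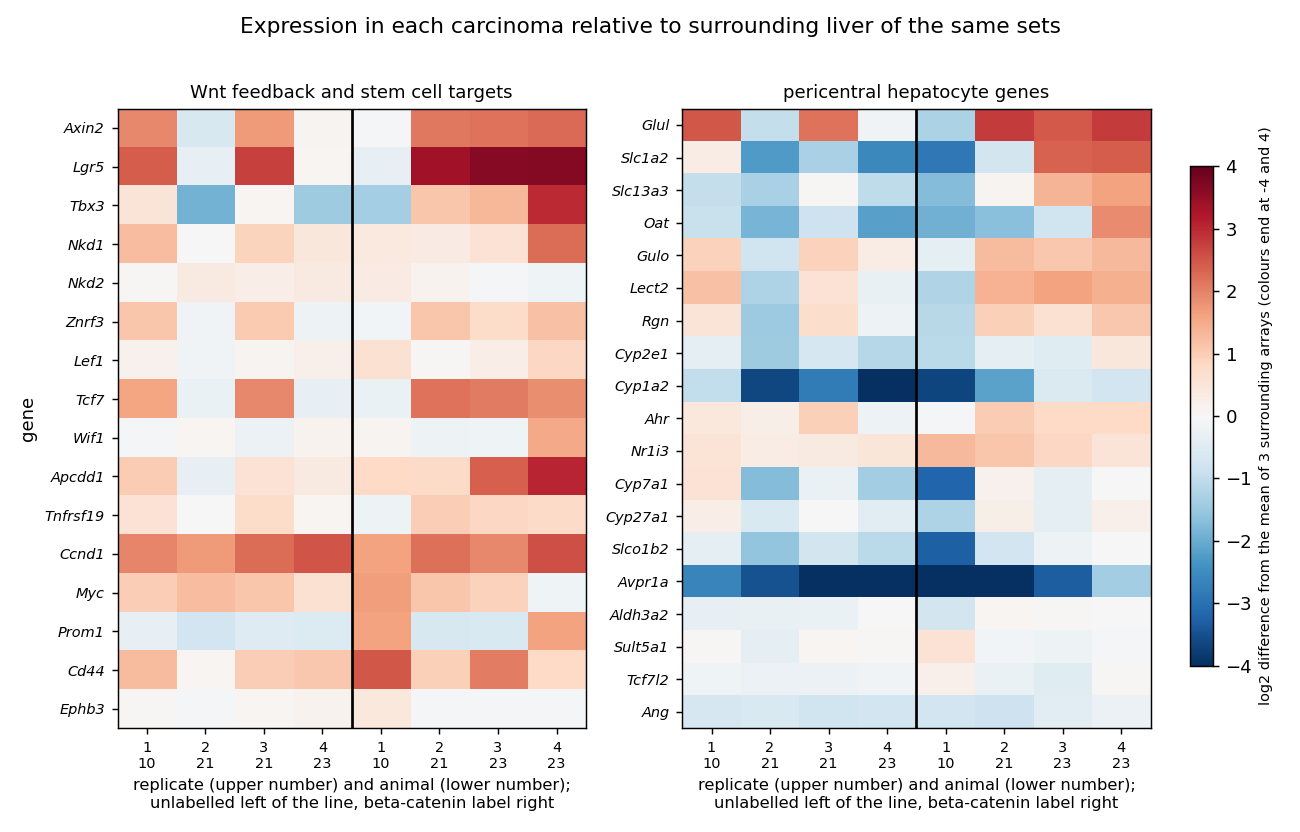
Log2 difference of each carcinoma (columns) from the mean of the 3 surrounding arrays of the same control sets, for the 16 Wnt feedback genes (left) and the 19 pericentral genes (right); red is higher and blue lower than surrounding liver. Unlabelled replicates 1 and 3 share colours with labelled replicates 2 to 4 for Glul, Lgr5, Axin2, Tcf7 and Lect2, and labelled replicate 1 with unlabelled replicates 2 and 4.

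Ctnnb1 itself was even in labelled carcinomas and uneven in unlabelled ones. It read 11.99, 12.05, 12.18 and 12.19 in labelled replicates 1 to 4, and 12.11, 11.54, 14.27 and 12.71 in unlabelled replicates 1 to 4. Surrounding liver read 11.87, 12.004 and 11.82, and the highest value in frozen adenomas was 12.33. Unlabelled replicate 3, of animal 21, was 2.95-fold above the next highest carcinoma, which was unlabelled replicate 4. All 4 probe sets of Ctnnb1 were highest in this array. On another of them it read 13.38, where the other 7 carcinomas lay between 8.91 and 10.40 and the other frozen arrays between 8.08 and 9.44. Unlabelled replicate 3 is also 1 of the 2 unlabelled tumours with high Glul. The other, unlabelled replicate 1, read 12.11 for Ctnnb1, within the labelled range. Unlabelled replicate 4, with the next highest Ctnnb1, read 10.39 for Glul on the probe set used, below the tumours with high Glul. The 2 genes thus did not run together across these tumours. The group difference in Ctnnb1 was -0.52 ± 0.33 with a limma adjusted p of 0.999, and this gene was singled out after its values were seen.

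The list of the destruction complex, partners and cofactors of beta-catenin, which includes Ctnnb1, had mostly small differences. Of 27 measured genes none had an unadjusted p under 0.05, 20 differences were positive, and the median was 0.05. Axin1, the core scaffold, read 6.75 to 7.23 in labelled and 6.56 to 7.14 in unlabelled carcinomas. Axin1, Gsk3a, Fbxw11 and Crebbp, 4 of the 27, shared the 5 highest arrays of Glul, as 5.6% of all genes did. The corepressor Tle3 was the 1 gene whose groups did not overlap, at 5.83 to 6.02 in labelled and 5.16 to 5.64 in unlabelled carcinomas, with a difference of 0.42 ± 0.25. Non-overlap in this direction held for 1.68% of all genes and in the other for 1.13%. Cdh1, E-cadherin, which binds beta-catenin at the membrane, read 11.11, 7.20, 9.50 and 10.30 in labelled and 9.81, 10.55, 9.12 and 10.41 in unlabelled replicates 1 to 4. Labelled replicate 2 was the low one, and the difference was -0.69 ± 0.49.

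Wnt ligands, secreted modulators and receptors were split in sign. Of 30 measured genes none was called, 14 differences were positive and 16 negative, and the median was -0.01. At an unadjusted p under 0.05, the receptor Fzd8 was higher (0.31 ± 0.12) and the ligand Wnt2 and the receptor Fzd1 were lower (-0.38 ± 0.14 and -0.41 ± 0.19). None of the 30 shared the 5 highest arrays of Glul. Sfrp1, a secreted Wnt antagonist, was high in unlabelled replicates 4 and 1 (7.13 and 5.98) and labelled replicate 1 (5.69), and lay between 4.53 and 4.88 in the other 5. Wls, the carrier that exports Wnt proteins, read 5.33 in labelled replicate 4 and 6.88 to 7.74 in the others.

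Genes named in the lists beyond the rule given with the processing were chosen after their values were seen. Across the whole table, limma with the animal as block called 0 of 14217 genes between labelled and unlabelled carcinomas. At an unadjusted p under 0.05 there were 723 genes, 408 higher and 315 lower, where 710.8 would be 5% of those tested. The smallest adjusted p was 0.203. The fit on the 8 arrays alone called 0 genes as well, with 580 at an unadjusted p under 0.05. Differences had 1 sign in all 3 animals for 1805 genes higher (12.7%) and 1453 lower (10.2%).

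Of genes with 1 sign in all 3 animals, the 8 with the smallest p in each direction are given here as genes that did not pass. Higher in labelled carcinomas were Syngr1 (0.67 ± 0.13), Mettl7a (0.74 ± 0.15), Procr (1.28 ± 0.28), Tut1 (0.58 ± 0.13), Tnrc6b (0.44 ± 0.10), Plekhg3 (0.60 ± 0.14), Slc25a33 (0.64 ± 0.15) and Smagp (0.60 ± 0.15). Their limma adjusted p lay between 0.203 and 0.420. Mettl7a, a lipid droplet methyltransferase, read 11.53, 10.72, 11.16 and 10.83 in labelled and 10.54, 10.09, 10.37 and 10.07 in unlabelled replicates 1 to 4, and the groups did not overlap. The P-body protein gene Tnrc6b, which acts in microRNA silencing, was also separated, at 7.93 to 8.29 against 7.64 to 7.83. Over all genes 1.68% were separated in this direction, and picking genes by small p favours such genes. Procr, the endothelial protein C receptor, read 7.97, 7.03, 6.77 and 7.89 against 6.92, 5.73, 6.69 and 5.54, with 1 overlap between labelled replicate 3 and unlabelled replicate 1.

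Lower in labelled carcinomas were Pyroxd2 (-1.28 ± 0.24), Prdx4 (-0.58 ± 0.11), C5h1orf127 (-1.54 ± 0.31), Mfhas1 (-0.91 ± 0.18), Acat2 (-0.81 ± 0.18), Fasn (-1.55 ± 0.34), Idi1 (-0.89 ± 0.20) and Ankh (-0.95 ± 0.22). Their limma adjusted p lay between 0.203 and 0.368, and Pyroxd2, Prdx4, C5h1orf127, Acat2 and Fasn did not overlap between the groups. Over all genes 1.13% were separated in this direction. Picking genes by small p and 1 sign favours separated ones, so this is no further result about them. C5h1orf127 read 4.83, 4.06, 4.19 and 4.26 in labelled and 5.68, 6.34, 5.97 and 5.63 in unlabelled replicates. Surrounding liver read 5.14, 4.80 and 4.76, below every unlabelled tumour. Prdx4, a peroxiredoxin of the endoplasmic reticulum, read 10.73 to 11.35 against 11.54 to 11.91. Pyroxd2, a mitochondrial oxidoreductase, read 6.78 in labelled replicate 1, 7.85 to 8.34 in the other labelled tumours and 8.75 to 9.20 in the unlabelled ones.

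Leaving out 1 array changed the count of called genes in 2 of 8 cases. Without labelled replicate 1, limma called 10 genes, 6 higher (Slc30a2, Ppp1r15b, Prr15, Tcn2, Slc29a1 and Tbx3) and 4 lower (Sqor, Inf2, Gria3 and Pck1). Tbx3 was then 2.53 higher with an adjusted p of 0.0467. The array left out was the lowest of its group for each of the higher genes, Tbx3 among them. It was the highest for each of the lower ones but Sqor. Leaving it out widens these differences and is no test of those genes. Without labelled replicate 2, limma called 5 genes: Smagp was higher and Fdps, Ankh, Idi1 and Acat2 were lower. This array was the lowest of its group for Smagp and the highest for the other 4. Leaving it out widens all 5 differences and is no test of them. Without any 1 of the other 6 arrays the count was 0.

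Both carcinomas of animal 10 run against the other animals in the markers, so the fit was also made without this pair, a choice made after seeing the marker values. It cannot serve as a test of those markers, nor of other genes in which this pair runs against the other animals, such as Slc30a2 and Cxcl13. Limma then called 18 genes, 13 higher and 5 lower, with 1039 at an unadjusted p under 0.05. Slc30a2, a zinc exporter, rose by 2.69 (adjusted p 1.41e-04, against 0.652 with all arrays). Lgr5 rose by 2.82 ± 0.48 and Tbx3 by 2.79 ± 0.48 (adjusted p 0.0261 for each). Glul was 2.44 ± 0.59 higher and did not pass, at an adjusted p of 0.122, with unlabelled replicate 3 at 12.69 still among the unlabelled tumours.

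Slc30a2 read 4.88, 7.31, 7.80 and 8.41 in labelled replicates 1 to 4 and 6.63, 4.65, 5.60 and 4.88 in unlabelled ones. The chemokine gene Cxcl13, which attracts B cells, read 4.05, 11.52, 10.26 and 11.66 against 10.19, 5.77, 9.84 and 6.83. Both genes had the same 5 highest tumours as Glul, and in Slc30a2 the lowest of the 5, unlabelled replicate 3, was nearer to the low ones. Gria3, a glutamate receptor subunit, ran the other way, at 9.66, 5.50, 3.89 and 3.20 in labelled and 6.46, 9.31, 6.83 and 8.03 in unlabelled replicates. Without the pair of animal 10 it was lower by 3.63 on the log2 scale (adjusted p 0.0445), and labelled replicate 1 held the highest of the 8 values.

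Fatty acid synthesis genes were lower in labelled carcinomas in 15 of 16 measured genes, with a median of -0.56, and none was called. Of all 14217 genes, 6717 had a negative difference. At an unadjusted p under 0.05 there were 6 lower and 0 higher, where 2.22% of all genes were lower and 2.87% higher. Fatty acid synthase, Fasn, read 9.11, 11.40, 10.74 and 9.72 in labelled and 11.79, 11.79, 12.26 and 11.86 in unlabelled replicates 1 to 4. Surrounding liver read 10.46, 10.56 and 9.98. Every unlabelled tumour thus stood above every labelled one and above surrounding liver, while the labelled ones lay on both sides of it. Fasn was picked above by small p and 1 sign, which favours separated genes, and 1.13% of all genes were separated in this direction. The difference was -1.55 ± 0.34, a 2.92-fold ratio, with a limma adjusted p of 0.276.

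Elovl6, which elongates the product of Fasn, read 6.83, 9.84, 8.46 and 6.88 in labelled and 10.27, 10.29, 10.40 and 9.72 in unlabelled replicates 1 to 4. Labelled replicates 1 and 4 were the low tumours, and replicate 2 overlapped with the unlabelled group. Scd, the desaturase that follows, read 10.17, 13.20, 12.96 and 10.65 against 13.48, 13.18, 13.55 and 13.02. Again replicates 1 and 4 were low, and replicates 2 and 3 reached or neared the unlabelled range. The differences were -1.95 ± 0.57 for Elovl6 and -1.43 ± 0.57 for Scd, and their limma adjusted p was 0.549 and 0.838. Acly and Acaca, which supply acetyl-CoA and malonyl-CoA, had differences of -0.89 ± 0.34 and -0.79 ± 0.37.

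By animal, the median of this list was -1.16 in animal 10, 0.02 in animal 21 and -0.77 in animal 23. The list mean was 8.59 and 8.91 in labelled replicates 1 and 4, 10.11 and 9.61 in replicates 2 and 3, and 9.97 to 10.39 in the unlabelled tumours. With 1 carcinoma left out the median difference ranged from -0.40 (without labelled replicate 4) to -0.89 (without labelled replicate 2), and without both arrays of animal 10 it was -0.35. The SD of labelled carcinomas had a median of 0.80 over the list, against 0.25 in unlabelled ones.

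Cholesterol synthesis genes had 13 negative and 2 positive differences among 15 measured, a median of -0.37, and 6 lower at an unadjusted p under 0.05 (2.22% of all genes). The isomerase Idi1 read 9.94, 10.39, 9.36 and 9.28 in labelled and 10.69, 11.17, 10.21 and 10.71 in unlabelled replicates 1 to 4, with a difference of -0.89 ± 0.20. Fdps, which makes farnesyl diphosphate, read 11.25, 11.85, 10.71 and 10.67 against 12.01, 11.997, 11.84 and 11.90. Its groups overlapped only in labelled replicate 2 and unlabelled replicate 3, with 11.85 against 11.84. Fdps had a difference of -0.73 ± 0.18 and a limma adjusted p of 0.420. Acat2, which makes acetoacetyl-CoA at the start of the pathway and was not on the list, read 8.28, 8.81, 8.28 and 8.09 against 9.33, 9.24, 8.91 and 9.25, without overlap. Like Idi1, it was picked above by small p and 1 sign, which favours separated genes. Its separation, which 1.13% of all genes had in this direction, adds nothing about the list.

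Against surrounding liver, limma called 2 of the 16 fatty acid synthesis genes higher and 4 lower in labelled carcinomas, and 5 higher and 1 lower in unlabelled ones. Of the 15 cholesterol synthesis genes, 10 fell in labelled and 4 in unlabelled carcinomas, and none rose. Over all genes 7.74% were called higher and 9.58% lower in labelled carcinomas, and 4.48% and 6.91% in unlabelled ones. Fasn was called higher in unlabelled carcinomas (1.47, adjusted p 0.0048) and was at -0.07 (0.91) in labelled ones. Elovl6 and Scd were called in unlabelled carcinomas (2.20 and 2.27) and stood at 0.25 and 0.84 in labelled ones. Idi1 was called lower in labelled carcinomas (-1.30, adjusted p 6.0e-05) and stood at -0.40 in unlabelled ones. These comparisons share their controls, and the test of the difference between the groups is the one given above, which none of these genes passed.

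**Figure D3:**
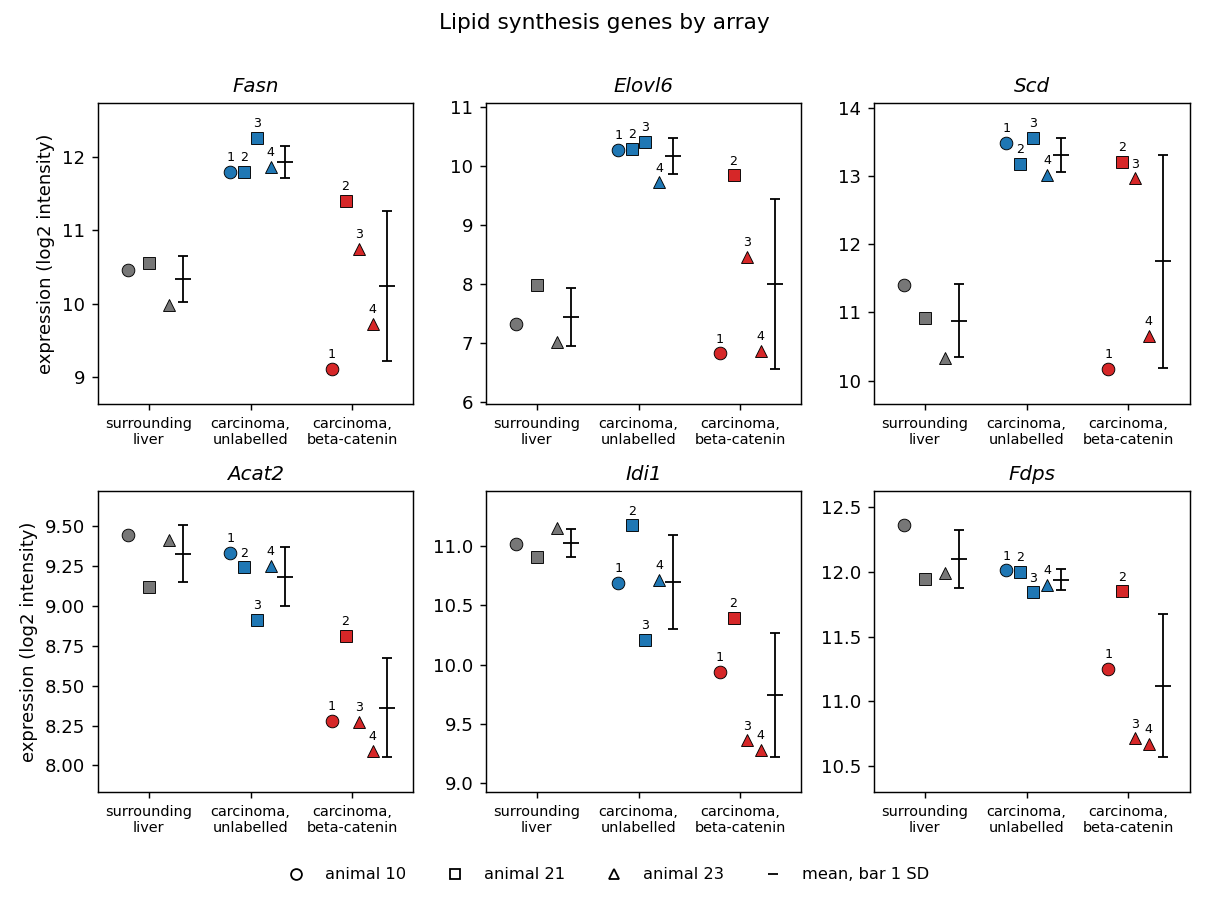
Log2 intensity (vertical axes) of 6 lipid synthesis genes in 3 surrounding arrays (grey), 4 unlabelled (blue) and 4 labelled carcinomas (red), with replicate numbers, animals as symbols, and the mean with 1 SD. Fasn and Acat2, both picked by small p, do not overlap between the carcinoma groups, as 1.13% of all genes do not in this direction. Labelled replicates 1 and 4 are the lowest for Fasn, Elovl6 and Scd, and labelled replicate 2 lies nearest to the unlabelled tumours.

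Periportal genes, which beta-catenin holds back in normal liver, were negative in 14 of 17 measured, with a median of -0.45 and none called. At an unadjusted p under 0.05, where 2.22% of all genes were lower, there were 4 lower: Hal (-0.96 ± 0.40), Pck1 (-1.84 ± 0.76), Arg1 (-0.56 ± 0.23) and Fbp1 (-0.54 ± 0.19). Pck1, the entry enzyme of gluconeogenesis, read 12.57, 5.45, 7.63 and 9.43 in labelled and 11.18, 10.42, 7.77 and 11.20 in unlabelled replicates 1 to 4. Labelled replicate 1 was the highest of the 8, and unlabelled replicate 3 lay among the labelled tumours. By animal, the list median was 0.57 in animal 10, -0.78 in animal 21 and -0.67 in animal 23, the reverse of the pericentral list in each animal. With 1 carcinoma left out the median ranged from -0.14 (without unlabelled replicate 2) to -0.69 (without unlabelled replicate 1). Fbp1, fructose bisphosphatase, was separated, at 10.74 to 10.80 in labelled and 10.90 to 11.84 in unlabelled carcinomas, as were 1.13% of all genes in this direction.

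Glutamine, glutamate and ammonia genes had 15 positive and 7 negative differences and a median of 0.14, and none had an unadjusted p under 0.05. Of the 21 genes other than Glul, 7 shared its 5 highest arrays (5.61% of all genes), among them Glud1, Asns and the amino acid transporter pair Slc7a5 and Slc3a2. The glutaminase Gls2 read 10.59 in labelled replicate 1 and 5.74 to 8.79 in the other carcinomas. Bile acid genes had 6 positive and 12 negative differences and a median of -0.08, which was 0.10 without labelled replicate 1 and -0.15 without unlabelled replicate 4. Amacr, a racemase of bile acid synthesis, and the phospholipid exporter Abcb4 were higher at an unadjusted p under 0.05, by 0.82 ± 0.33 and 0.37 ± 0.16. Cyp8b1 was highest in unlabelled replicate 3 at 13.15 and lay between 6.65 and 11.04 in the others.

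Phenobarbital-responsive genes had a median difference of 0.07 over 19 genes, 11 positive and 8 negative. Cyp2c7 was the 1 gene with an unadjusted p under 0.05, at 10.78, 11.03, 7.51 and 7.64 in labelled and 12.90, 12.49, 11.05 and 10.86 in unlabelled replicates 1 to 4. Within each animal the labelled tumours were lower, and the groups overlapped only between animals. The difference was -2.28 ± 0.70 with a limma adjusted p of 0.598. Cyp2c6v1 and Cyp3a23-3a1 differed by 0.07 ± 0.12 and 0.07 ± 0.20.

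Targets of NRF2, the transcription factor of the response to oxidative stress, had 16 negative differences among 19 and a median of -0.20, and none was called. Labelled replicate 4 was the lowest of the 8 carcinomas in 17 of these 19 genes, as in 12.5% of all genes. Without this array the median of the list was 0.01. The aldo-keto reductase Akr1b8 read 12.47, 12.45, 12.15 and 8.56 in labelled replicates 1 to 4 and 12.20 to 12.41 in unlabelled ones. Gstp1, the classical marker of rat liver foci, read 14.05, 14.35, 13.70 and 12.17 against 14.02 to 14.19. This 1 tumour, which had the highest Tbx3, was low in both. Pgd, of the pentose phosphate path, was lower at an unadjusted p under 0.05 (-1.05 ± 0.36) and Hmox1, haem oxygenase, higher (0.83 ± 0.31).

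Foci and oncofetal markers had a median of -0.08 over 18 genes, and Ggt1 alone had an unadjusted p under 0.05. Ggt1 read 10.96, 7.05, 8.005 and 5.35 in labelled and 8.72, 10.34, 8.46 and 10.07 in unlabelled replicates 1 to 4, with a difference of -1.49 ± 0.71. Aldh3a1 read 7.07, 10.82, 8.94 and 5.08 against 12.05, 10.16, 10.51 and 11.23, with a difference of -2.71 ± 1.39. In both genes labelled replicate 4 was the lowest tumour. Afp, alpha-fetoprotein, read 5.89 to 9.05 and 6.64 to 8.51, and differed by -0.04 ± 0.49.

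Proliferation genes had 22 positive and 5 negative differences and a median of 0.16 (-0.01 without unlabelled replicate 1, 0.32 without unlabelled replicate 4), none with an unadjusted p under 0.05. Mki67, which marks cycling cells, read 6.74, 6.96, 6.19 and 6.77 in labelled and 5.53, 6.27, 7.36 and 6.29 in unlabelled replicates 1 to 4. Unlabelled replicate 3, the tumour with high Ctnnb1, was the highest of the 8 in 24 of 27 proliferation genes, as in 12.7% of all genes. The list mean was 6.94 in this array, 6.69 in labelled replicate 2 of the same animal and 5.76 to 6.21 in the other 6.

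**Figure D4:**
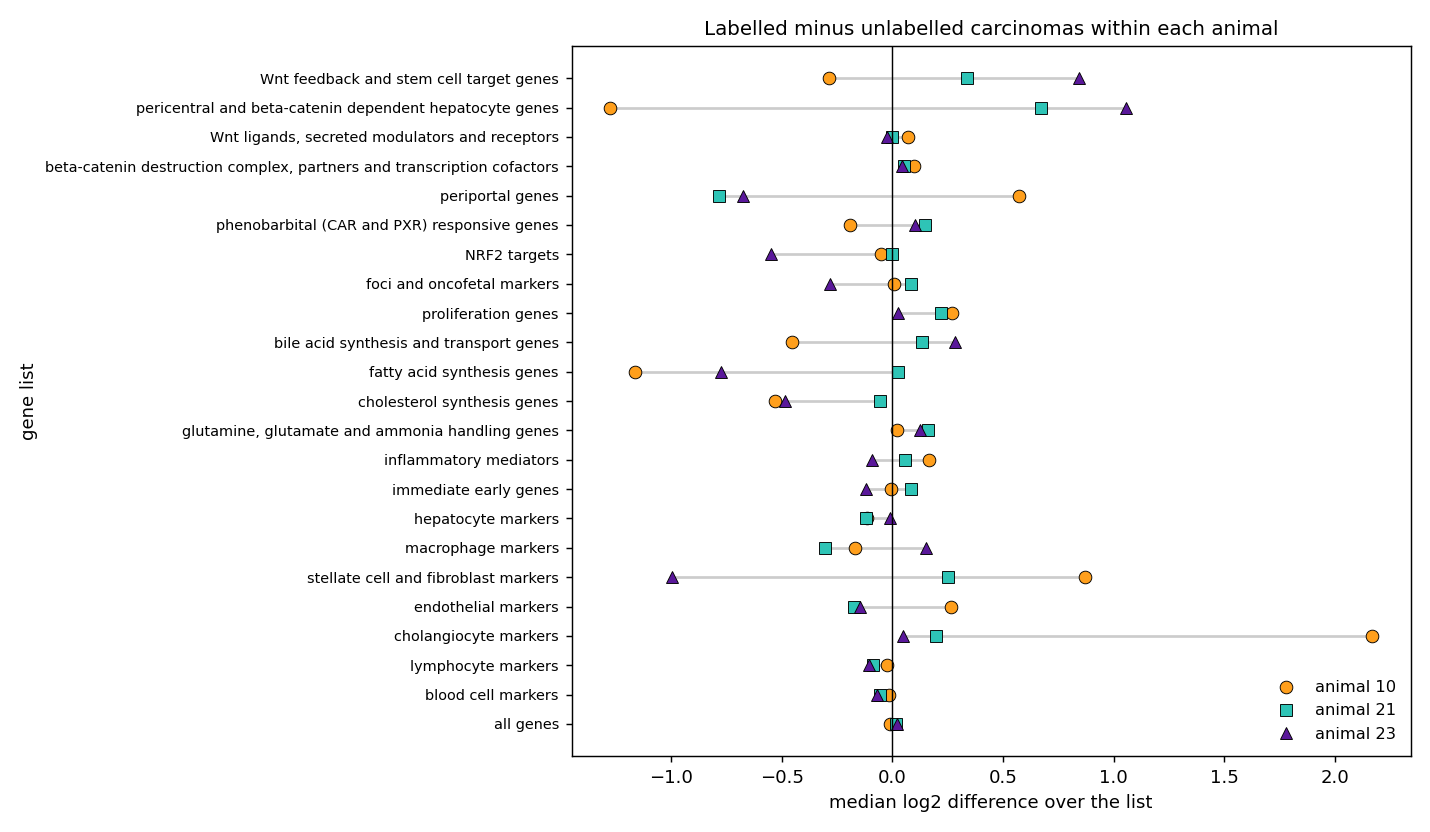
Median over each gene list (rows) of the log2 difference, labelled minus unlabelled carcinomas, within animal 10 (circles), animal 21 (squares) and animal 23 (triangles); the lowest row is all genes. Pericentral and periportal lists change sides between animal 10 and the other 2, and the cholangiocyte list reaches 2.17 in animal 10. Cholesterol synthesis lies below 0 in all 3 animals (-0.06 in animal 21), as do NRF2 targets and hepatocyte, lymphocyte and blood cell markers.

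Among markers of other cell types, those of cholangiocytes were high in labelled replicate 1. All 7 measured cholangiocyte markers were highest in this array, and it was highest in 20.3% of all genes. Keratin 7, Krt7, read 7.58 there and 3.96 to 4.31 in the other 7 carcinomas, and Krt19 read 9.72 there and 3.83 to 8.42 elsewhere. The mean of the list ranged from 4.92 to 7.74 in labelled and from 4.94 to 5.82 in unlabelled carcinomas. Spp1, osteopontin, read 8.52 there and 4.85 to 6.47 elsewhere. The median difference of the list was 0.53, and 0.0035 without that array. The part of these markers in the low pericentral genes of labelled replicate 1 was not tested.

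Stellate and fibroblast markers had a median of -0.10 (-0.37 without labelled replicate 1, 0.35 without unlabelled replicate 4) and ranged in list mean from 6.31 to 7.68 in labelled and from 6.26 to 7.53 in unlabelled carcinomas. Lumican, Lum, read 3.89 in labelled replicate 4 and 6.26 to 6.57 in the other labelled tumours, against 3.83 to 6.26 in unlabelled ones. Decorin, Dcn, read 11.10 in unlabelled replicate 4 and 6.20 to 8.39 in the other 7. Their part in the group differences was not tested. Hepatocyte (median -0.09), macrophage (-0.07), endothelial (-0.08), lymphocyte (-0.01) and blood cell markers (0.00) showed no gene with an unadjusted p under 0.05, and neither did inflammatory mediators (-0.00) or immediate early genes (0.14). The largest difference was -0.72 ± 0.52 for Apoa2 among hepatocyte, -0.41 ± 0.30 for Adgre1 among macrophage, -0.29 ± 0.29 for Stab2 among endothelial, -0.23 ± 0.18 for Cd4 among lymphocyte and -0.20 ± 0.29 for Hbb among blood cell markers. Among inflammatory mediators it was 1.36 ± 1.21 for Lcn2 and among immediate early genes 0.66 ± 0.37 for Atf3. Unlabelled replicate 1 was the highest array in 8 of 9 macrophage markers, as in 8.71% of all genes, and the list mean ranged from 7.72 to 8.56 in labelled and from 7.91 to 8.86 in unlabelled carcinomas. Labelled replicate 1 was the highest in 10 of 14 inflammatory mediators (20.3% of all genes). The part of these in the results was not tested. Albumin, the defining hepatocyte product, read 14.95 to 15.06 in all 8 carcinomas. The highest value of the series is 15.13, so albumin lies at the top of the scale and cannot show equal hepatocyte content. The mean of the hepatocyte list ranged from 12.48 to 13.16 in labelled and from 12.88 to 13.04 in unlabelled carcinomas. Lcn2, an acute phase protein, read 10.96 in labelled replicate 1 and 5.26 to 6.74 elsewhere.

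Against surrounding liver, each group gave its own set of calls, with shared controls. In labelled carcinomas limma called 1101 genes higher (7.74%) and 1362 lower (9.58%), and in unlabelled ones 637 higher (4.48%) and 983 lower (6.91%). Blocking on the control set rather than the animal, the totals of 2463 and 1620 fell to 1444 and 904. Without labelled replicate 3 the labelled total was 1640, and without unlabelled replicate 1 or 4 the unlabelled total was 728 or 665.

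Of the 16 Wnt feedback genes, 8 rose in labelled carcinomas (7.74% of all genes) and 2 in unlabelled ones (4.48%), and none fell. Lgr5 rose by 2.53 (limma adjusted p 0.0079), Axin2 by 1.83 (0.0085), Apcdd1 by 1.68 (0.0015) and Tcf7 by 1.55 (0.023) in labelled carcinomas. The matching values in unlabelled ones were 1.15 (0.29), 0.97 (0.21), 0.56 (0.33) and 0.73 (0.37). Ccnd1 rose in both, by 2.43 and 2.47, and so did Myc, by 1.10 and 0.93. Passing in 1 group and missing in the other is no test of a difference, and the direct comparison called none of these genes.

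Periportal genes fell in 11 of 17 cases in labelled (9.58% of all genes) and in 6 of 17 in unlabelled carcinomas (6.91%), and none rose. Hal, histidine ammonia lyase, fell by 2.74 and 1.78, and Fbp1 by 1.56 and 1.02. Proliferation genes rose in 18 of 27 and 9 of 27 cases (7.74% and 4.48% of all genes), with Mki67 at 2.04 and 1.51. NRF2 targets rose in 14 of 19 and 15 of 19, with Gstp1 at 1.66 and 1.83. Macrophage markers fell in 6 of 9 and 4 of 9 cases (9.58% and 6.91% of all genes). Nr1i3 rose in both groups, by 1.13 (limma adjusted p 3.0e-05) and 0.57 (0.016).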

How the data were processed

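Frozen carcinomas, other lesions and surrounding liver were hybridised to Affymetrix rat arrays after amplification of 250 ng of RNA, per the labels. The values used are those deposited by the authors, log2 intensities per probe set from 2.14 to 15.13. Their summarisation and normalisation are not given in the sources used here. Of 31042 probe sets, 20826 carried 1 gene symbol in GEO's platform annotation, 436 several and 9780 none, and the probe set with the highest mean stood for each of 14217 genes. Array values carry no read depth, and the number of arrays limits the precision.

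Limma 3.58.1 (R 4.3.3) was fitted to 26 frozen arrays with group and animal as terms, a trended prior variance and 17 residual degrees of freedom. Called means a Benjamini-Hochberg adjusted p under 0.05 over all genes. The animal number pairs tumours because they come from the same animal. Deviations from group means correlated with a median of -0.03 over 5 same-animal pairs and 0.07 over 11 other pairs. The scripts were tested on simulated data.

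Members and the 22 gene lists (404 genes, 349 measured) were chosen with earlier results of these data known. The text names Glul, Lgr5 and Tbx3, all measured Wnt feedback and pericentral genes, the 8 uncalled genes per direction with the smallest p and 1 sign in all 3 animals, and in each other list the gene with the largest difference. Other names were chosen after their values were seen. Alternatives were the 8 carcinomas alone, the control set as block, no or random animal term, no trend, quantile normalization, other choices of probe set, genes above the median, and leaving out arrays. Array labels in the source animal field of animal 21 differ between arrays, and the number that opens the title was used.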

Additional observations from a re-analysis of the deposited data

Results flagged for a closer look

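In 20 of 182 groups of 4 arrays (genes named by the rule and list means), 1 array stood far from the other 3 by Dixon's criterion, which chance meets in about 1 in 20 groups. The array labelled as beta-catenin replicate 1 (animal 10) was the lowest of its group for Glul (9.259, nearest 12.96), Lgr5 (3.077, nearest 6.784), Axin2 (5.705, nearest 7.891), Tcf7 (5.06, nearest 7.196) and Lect2 (9.299, nearest 11.89). It was also the lowest for Gulo (10.59, nearest 12.04), Cyp7a1 (8.135, nearest 10.92) and Aldh3a2 (11.38, nearest 12.13). The same array was the highest for Lcn2 (10.96, nearest 6.611), Sfrp1 (5.686, nearest 4.875) and Ephb3 (5.336, nearest 4.849). Its list mean was the highest for cholangiocyte markers (7.736, nearest 5.378) and for Wnt ligands and receptors (5.613, nearest 5.452).

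Labelled replicate 4 was the highest for Nkd1 (7.95, nearest 6.307) and the lowest for Lum (3.893, nearest 6.261). Labelled replicate 2 was the lowest for Plekhg3 (6.448, nearest 7.219). Unlabelled replicate 3 was the highest for Fasn (12.26, nearest 11.86) and for the mean of fatty acid synthesis genes (10.39, nearest 10.03). Unlabelled replicate 2 was the lowest for Sult5a1 (5.781, nearest 6.178) and for the mean of the destruction complex list (7.634, nearest 7.687).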

How the results depend on the processing

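Between labelled and unlabelled carcinomas, 0 genes were called with the 8 carcinomas alone, the control set as block, a random animal block, no trend, quantile normalization, other choices of probe set, probe sets one by one, and genes above the median. The fit with no replicate block also called 0, with 2525 genes for labelled and 2399 for unlabelled carcinomas against surrounding liver. With the control set as block these last counts were 1444 and 904. Leaving out 1 array gave 0 to 10, 1640 to 2429 and 665 to 1861 genes in the 3 comparisons. Without both arrays of animal 10, chosen after seeing the data, 18 genes were called between the carcinomas, Lgr5 at 2.82 and Tbx3 at 2.79 among them. With 1 array left out Tbx3 ranged from 0.98 to 2.53, Glul from 0.20 to 1.97 and Lgr5 from 0.71 to 2.52. With the mean of all its probe sets Tbx3 was 0.86. The medians of the foci (-0.18 to 0.03), phenobarbital (-0.03 to 0.16), macrophage (-0.19 to 0.03), endothelial (-0.15 to 0.01), blood cell (-0.07 to 0.02), lymphocyte (-0.04 to 0.03), inflammatory (-0.01 to 0.11) and Wnt ligand lists (-0.05 to 0.02) changed sign with 1 array left out.

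Glul, Lgr5 and Tbx3 reversed within animal 10 (-3.76, -2.76 and -1.86) and were 2.74, 3.57 and 3.59 within animal 23. Ephb3 turned to 0.00076 with the 8 carcinomas alone and to 0.0066 with no replicate block, where Myc turned to -0.096. Some small differences changed sign with 1 array left out: Aldh3a2 (-0.091 to 0.14), Ang (-0.0053 to 0.17), Apoa2 (-1.21 to 0.16), Avpr1a (-0.44 to 0.90), Ccnd1 (-0.22 to 0.17), Cdh1 (-1.23 to 0.27), Cyp27a1 (-0.39 to 0.34), Cyp7a1 (-0.60 to 0.96), Ephb3 (-0.14 to 0.055), Myc (-0.0070 to 0.39), Nkd1 (-0.22 to 0.40), Oat (-0.011 to 1.26), Slco1b2 (-0.53 to 0.52), Sult5a1 (-0.059 to 0.15), Tcf7l2 (-0.0097 to 0.16) and Wif1 (-0.081 to 0.45). The cause was not tested. With 8 tumours of 3 animals and labels that differ from the markers in 3 of them, a missed threshold does not show that the groups are alike.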
